A study of Mus musculus with 6 samples.

Results

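The genes of major histocompatibility complex (MHC) class II presentation, their transactivator Ciita and 3 ligands or receptors through which macrophages talk to T cells were examined in resting bone-marrow-derived macrophages (BMDMs) with and without the transcriptional coregulator CITED2. The set held 10 of the 22248 genes listed with values, namely Ciita, Cd74, H2-Aa, H2-Ab1, H2-Eb1, H2-DMa, H2-DMb1, Cd86, Cd40 and Cd274. These genes were chosen from the same contrast that is described here, with its result known, so their differences between genotypes are given as descriptions without a p-value. RNA was sequenced in 3 control libraries from Lyz2cre mice, which carry Cre in the lysozyme 2 gene and have intact Cited2, and in 3 libraries from CITED2-deficient Lyz2cre:CITED2Fl/Fl mice, in which that Cre removes the floxed Cited2 gene. All mice were C57BL/6, labelled as postnatal week 10 (the study's methods give a younger age), both groups carried Cre, and the marrow cells were differentiated ex vivo and received no stimulus. Cre from the lysozyme 2 gene acts in macrophages, neutrophils and their precursors, so deletion precedes or accompanies differentiation in the dish. The labels number 3 samples per genotype and do not say whether any mice were pooled, so each SD below measures the spread between these libraries. Each standard error (SE) of a log2 fold change rests on that spread and, through limma, on the variance of all tested genes.

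MHC class II molecules show peptides from ingested material to CD4+ T cells. An alpha chain and a beta chain pair around the invariant chain CD74, which fills the groove and guides the complex to endosomes, and the DM heterodimer then exchanges the remaining fragment of CD74 for a peptide. CIITA is recruited by RFX, CREB and NF-Y to the X and Y boxes in front of class II genes and is their limiting activator, and interferon-gamma induces it through JAK kinases and IRF1. CD40 and CD86 deliver or receive costimulatory signals at the same contact, whereas CD274 (PD-L1) restrains the T cell through PD-1.

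The promoters of 5 members were held in a table of RefSeq windows (GRCm38.p6), each from 250 bases before to 50 bases after an annotated start, as 6 windows because H2-DMa had more than one start. The members without an entry were Ciita, Cd74, H2-Ab1, Cd86 and Cd40. The stretches below are shown because they hold letters of the X and Y boxes through which CIITA reaches class II genes. For H2-DMb1 only 30 bases around the X box letters are printed, and its Y box letters lie beyond them. They are written 5′ to 3′ in the direction of transcription, and the capitals mark the letters GNAACT of the X box and ATTGG, the reverse complement of the Y box letters CCAAT.

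H2-Eb1, plus strand, chr17:34305752-34305836: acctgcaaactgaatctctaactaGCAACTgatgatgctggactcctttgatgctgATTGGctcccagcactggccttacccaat
H2-Aa, minus strand, chr17:34287854-34287938: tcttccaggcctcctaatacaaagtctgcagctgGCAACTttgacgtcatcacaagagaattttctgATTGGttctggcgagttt
H2-DMb1, plus strand, chr17:34153087-34153116: ggtttacctaGTAACTgatgatgctaggct

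In the whole windows, the ATTGG letters of H2-Eb1 began 32 bases after the first letter of GNAACT, and in H2-Aa and H2-DMb1 they began 33 bases after it. This arrangement, searched on both strands with the starts 20 to 50 bases apart, was found in 3 of the 6 member windows and in 1.42% of all 32851 windows. It was spelled out after the windows had been read, as was AGNAACTGA, which H2-Eb1 and H2-DMb1 held and 2.03% of all windows hold. Of the motifs chosen earlier, CCAAT occurred on either strand in H2-DMb1, H2-Aa, H2-Eb1 and 1 of the H2-DMa windows, against 37.4% of all windows. The X box letters AGNNACAG (25.9% of all windows) occurred only in H2-Eb1, overlapping or after its start, and the longer form with ATG added (0.423%) in none of the 6. The interferon-stimulated element GAAA, any 2 bases, GAAA (3.44% of all windows) and the gamma-activated element TTCNNNGAA (8.30%) were in none of the 6 windows, including that of Cd274. These are matches of letters and not measured binding.

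Values are FPKM, fragments scaled by transcript length and library depth, which allow levels of different genes to be set side by side within a library. Cited2 itself, which checks the labels, stood at 71.7, 79.3 and 75.5 FPKM in the control and at 9.27, 7.22 and 7.53 FPKM in the CITED2-deficient libraries. The recovered depth was 17289286 to 18952077 fragments in control and 22583993 to 26100409 in CITED2-deficient libraries. Differences below are log2 fold changes of FPKM + 1, CITED2-deficient over control, estimated with limma across 11687 genes with a mean of at least 1 FPKM. The added 1 FPKM makes the log2 fold changes of genes at a few FPKM smaller in size than their fold ratios. Over these genes the median log2 fold change was -0.10, and with median-ratio scaling it was -0.01, so a zero in the estimates below lies about 0.1 higher than the middle of all genes. An adjusted p-value below 0.05 was reached by 51.3% of all tested genes, by 16.7% as higher and by 34.6% as lower in CITED2-deficient BMDMs. Of the 10 members, 2 were past this threshold as higher and 7 as lower, and the groups did not overlap in 9 of 10, against 59.9% of all tested genes. As the members were selected on this contrast, nothing is read from these counts.

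**Figure D1:**
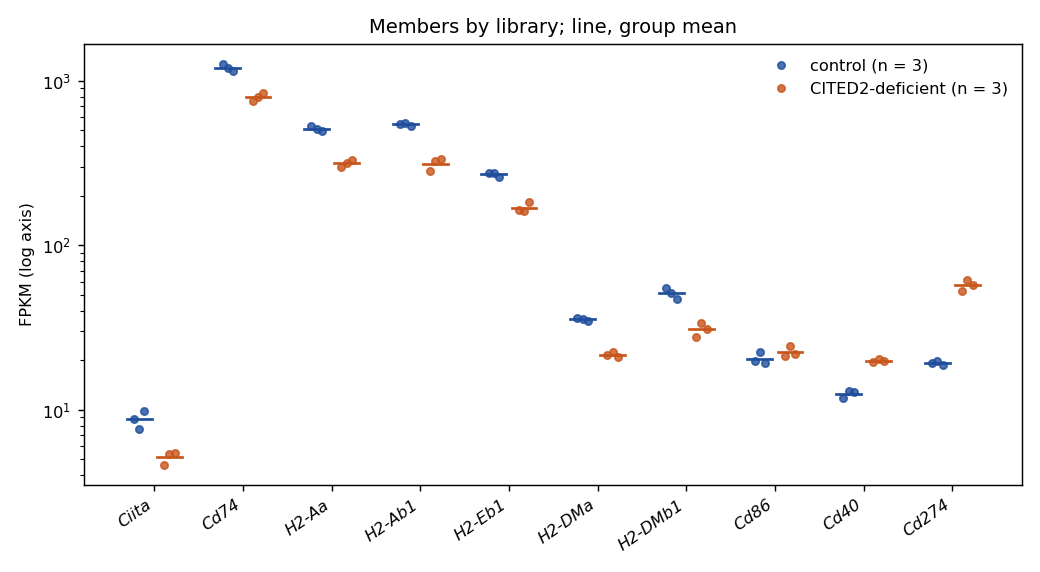
FPKM of the 10 members on a log axis in each of the 3 control (blue) and 3 CITED2-deficient (orange) libraries, with a line at each group mean. The 7 genes from Ciita to H2-DMb1 sit lower in all CITED2-deficient libraries, Cd40 and Cd274 sit higher, and the Cd86 groups overlap.

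Ciita, the transactivator, was the member with the lowest level. Its values were 8.78, 7.59 and 9.82 FPKM in the control libraries and 4.63, 5.35 and 5.46 FPKM in the CITED2-deficient libraries. All CITED2-deficient values lay under all control values, although the control libraries were spread over more than 2 FPKM. The means were 8.73 ± 1.12 FPKM (SD, n = 3) in control and 5.15 ± 0.449 FPKM (SD, n = 3) in CITED2-deficient BMDMs, a 1.70-fold lower level and a log2 fold change of -0.66 ± 0.10 (SE). With a pseudocount of 0.1 in place of 1 the log2 fold change was -0.75. The level of Ciita rested on 410 to 648 fragments per library. The files give 1 value per gene, so the alternative promoters of Ciita (mm10 chromosome 16, 10480059 to 10528418, plus strand) could not be told apart. Dexi overlaps Ciita on the opposite strand and was listed at 5.21 to 7.37 FPKM, and the sources do not say whether counting used strand.

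The peptide-binding chains and the invariant chain were abundant in these macrophages. H2-Aa, the alpha chain of I-A, measured 533, 511 and 494 FPKM in control and 301, 317 and 332 FPKM in CITED2-deficient libraries. Its partner H2-Ab1, the beta chain of I-A, measured 549, 553 and 531 FPKM and 281, 326 and 334 FPKM, respectively. Neither gene had overlapping groups, and the level was 1.62-fold lower for H2-Aa (log2 fold change -0.69 ± 0.04 (SE)) and 1.74-fold lower for H2-Ab1 (-0.80 ± 0.06 (SE)). H2-Eb1, the beta chain of I-E, measured 274, 277 and 259 FPKM in control and 163, 163 and 183 FPKM in CITED2-deficient libraries, 1.59-fold lower (-0.67 ± 0.05 (SE)). Its usual partner H2-Ea was not analysed here, and mice of the C57BL/6 background make no functional I-E alpha chain.

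Cd74, the invariant chain, had the highest level of all members. It measured 1267, 1198 and 1149 FPKM in control and 751, 801 and 843 FPKM in CITED2-deficient libraries. The groups lay apart, with means of 1205 ± 58.9 FPKM (SD, n = 3) in control and 798 ± 45.6 FPKM (SD, n = 3) in CITED2-deficient BMDMs and a log2 fold change of -0.59 ± 0.05 (SE). Summed over Cd74, H2-Aa, H2-Ab1 and H2-Eb1, the level was 2623, 2539 and 2434 FPKM in control and 1497, 1607 and 1691 FPKM in CITED2-deficient libraries. Cd74 was 2.33 to 2.38 times as abundant as H2-Aa in control and 2.50 to 2.54 times in CITED2-deficient libraries, ranges that do not overlap. The H2-Aa to H2-Ab1 ratio was 0.924 to 0.970 in control and 0.974 to 1.07 in CITED2-deficient libraries. In a culture measured as a whole, fewer cells that express class II and less RNA per cell cannot be told apart.

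H2-DMa and H2-DMb1, the chains of the DM peptide editor, were present at far lower levels than the chains they serve. H2-DMa measured 36.01, 35.4 and 34.8 FPKM in control and 21.4, 22.5 and 20.9995 FPKM in CITED2-deficient libraries. H2-DMb1 measured 54.98, 51.1 and 47.3 FPKM and 27.8, 33.9 and 30.97 FPKM, respectively. Both had groups that lay apart, with a log2 fold change of -0.68 ± 0.04 (SE) for H2-DMa and of -0.71 ± 0.08 (SE) for H2-DMb1, which varied more between replicates. The DMa to DMb1 ratio stayed between 0.655 to 0.736 in control and 0.665 to 0.771 in CITED2-deficient libraries, and these ranges overlap. The annotated H2-DMa gene overlaps Brd2 on the opposite strand, which was listed at 162 to 184 FPKM. H2-DMb1 has a near-identical copy, H2-DMb2, at 0.343 to 0.831 FPKM in control and 0.510 to 0.922 FPKM in CITED2-deficient libraries, and fragments of such copies can be assigned to either. Together the 7 class II genes had log2 fold changes from -0.80 to -0.59, a narrow range whose median was -0.68 (-0.58 with median-ratio scaling). Other class II relatives were close to the detection limit in both groups. H2-Ob measured 0.388 to 0.603 FPKM in control and 0.109 to 0.423 FPKM in CITED2-deficient libraries, H2-Oa at most 0.306 FPKM and H2-Eb2 at most 0.160 FPKM, and none of the 4 relatives with values passed the filter on low values.

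The 5 class II members outside Ciita and Cd74 lie in 1 stretch of mouse chromosome 17 (mm10, 34119541 to 34316674, 197.1 kb), in the order H2-DMa, H2-DMb1, H2-Ab1, H2-Aa and H2-Eb1. Of the 15 genes listed there, 9 were tested. The other 4 tested genes lie between H2-DMb1 and H2-Ab1 and serve class I presentation, namely the immunoproteasome subunits Psmb9 and Psmb8 and the peptide transporter chains Tap1 and Tap2. They were looked up by position after the values were seen. All 4 were higher in CITED2-deficient BMDMs, beside 16.7% of all tested genes, while the members on either side were lower. The members were selected on this contrast, so nothing is read from the change of direction along the stretch. Tap1 and Tap2 are also on the class I list below. Psmb9 measured 38.1, 37.5 and 40.2 FPKM in control and 67.7, 73.3 and 70.8 FPKM in CITED2-deficient libraries (log2 fold change 0.85 ± 0.04 (SE), limma adjusted p = 4.78e-07). Psmb8 measured 51.6, 56.3 and 55.2 FPKM and 98.2, 97.5 and 104 FPKM, respectively (0.86 ± 0.04 (SE), limma adjusted p = 3.88e-07). Cd74 (chromosome 18), Ciita and Cd86 (16), Cd40 (2) and Cd274 (19) lie elsewhere.

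**Figure D2:**
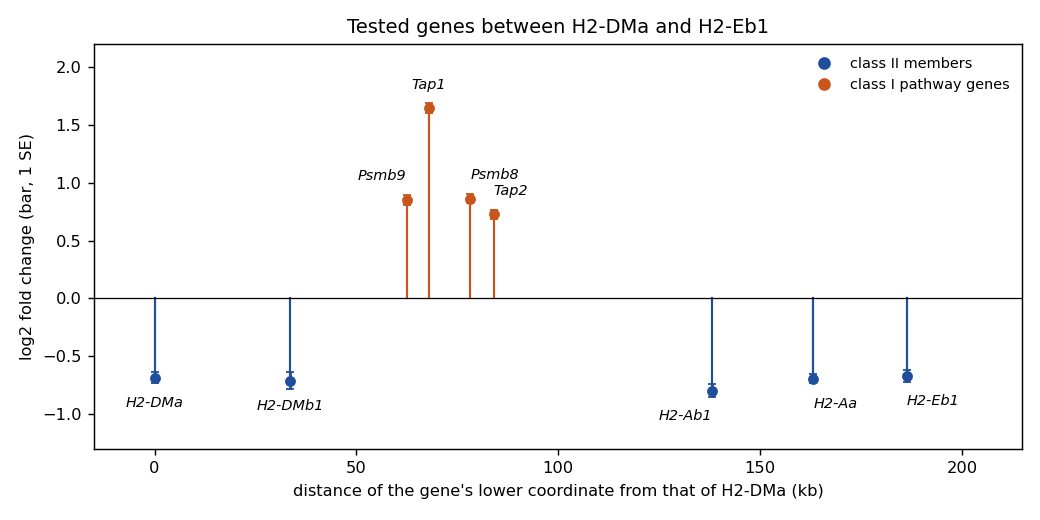
Log2 fold change (CITED2-deficient over control, bar 1 SE) of the 9 tested genes between H2-DMa and H2-Eb1 against the distance from H2-DMa in kb. The 5 class II members (blue) lie between -0.80 and -0.67, and the 4 class I pathway genes between them (orange) lie between 0.73 and 1.65.

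Factors that act with or on CIITA were listed beside the members. Of 11 tested genes on the list of class II transcription, 4 fell and 1 rose past the threshold, shares near those of all tested genes (34.6% lower and 16.7% higher), and the median log2 fold change was -0.08. Irf4, an interferon regulatory factor of dendritic and alternatively activated cells, fell from 6.01, 6.18 and 5.62 FPKM to 1.91, 2.39 and 1.95 FPKM (-1.17 ± 0.10 (SE), limma adjusted p = 1.30e-05). Creb1 fell to a log2 fold change of -0.37 ± 0.05 (SE) (limma adjusted p = 3.25e-04) and Rfxap, a subunit of RFX, to -0.26 ± 0.07 (SE) (limma adjusted p = 0.0102), and the latter call was lost with median-ratio scaling. The remaining RFX subunits Rfx5 (6.40 to 6.66 FPKM in control, 5.95 to 6.40 FPKM in CITED2-deficient libraries) and Rfxank (log2 fold change 0.08), the NF-Y subunits Nfya (0.03), Nfyb (-0.18) and Nfyc (-0.08), and Irf8 (-0.02) did not pass the threshold. With median-ratio scaling Nfya passed as higher (0.13, limma adjusted p = 0.00807). Usf1 (-0.14 ± 0.04 (SE), limma adjusted p = 0.00975) and Spi1, which encodes PU.1 (0.10 ± 0.04 (SE), limma adjusted p = 0.0402), passed the threshold. Both differences were about the size of the shift of all genes, with the same sign for Usf1 and the opposite sign for Spi1. The Usf1 call was lost with median-ratio scaling. Spi1 kept its call with larger differences under median-ratio scaling (0.20, limma adjusted p = 0.00169) and quantile normalization (0.17, limma adjusted p = 0.00621). The Spi1 call was lost with no filter on low values and with no variance trend. Leaving out any 1 of the 3 control replicates or CITED2-deficient replicate 3 also lost it (log2 fold change 0.0615 to 0.123 over the 6 omissions).

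Genes of the interferon-gamma route to Ciita went both ways. Of 6 tested genes, 3 rose and 2 fell, beside 16.7% of all tested genes higher and 34.6% lower. Irf1, an interferon-induced factor that binds the Ciita promoter, rose from 72.1, 73.6 and 73.2 FPKM to 119, 144 and 131 FPKM (0.84 ± 0.06 (SE), limma adjusted p = 4.99e-06). The receptor chain Ifngr1 fell from 248, 254 and 248 FPKM to 135, 132 and 128 FPKM (-0.92 ± 0.03 (SE), limma adjusted p = 3.02e-08), whereas Ifngr2 did not pass (0.02 ± 0.03 (SE)). With median-ratio scaling Ifngr2 passed as higher (0.12, limma adjusted p = 0.0111). Ciita was lower in the same libraries in which Irf1 was higher. Jak2 rose (0.29 ± 0.06 (SE), limma adjusted p = 0.00455), as did the feedback inhibitor Socs1 from a low level (0.502 to 0.649 FPKM in control, 1.42 to 2.09 FPKM in CITED2-deficient libraries, limma adjusted p = 0.00282), and Jak1 fell by 0.11 on the log2 scale (limma adjusted p = 0.00787), a call lost with median-ratio scaling.

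Of the enzymes that shape CD74 and the peptides it makes way for, 2 of 7 tested genes rose and 3 fell. Over all tested genes 16.7% were higher and 34.6% lower, and nothing is read from these counts. Cathepsin S (Ctss), which trims CD74 in the endosome, rose from 3009.7, 3055 and 2984 FPKM to 5652, 5692 and 5642 FPKM (0.91 ± 0.02 (SE), limma adjusted p = 5.77e-09), opposite to its substrate Cd74. Sppl2a, the protease that clears the last membrane stub of CD74, rose to a log2 fold change of 0.59 ± 0.03 (SE) (limma adjusted p = 6.00e-07). Ifi30, the lysosomal thiol reductase, fell (-0.51 ± 0.05 (SE), limma adjusted p = 2.62e-05), and so did the endosomal protease Lgmn (-0.24 ± 0.03 (SE), limma adjusted p = 1.36e-04) and the ubiquitin ligase March8 (-0.26 ± 0.04 (SE), limma adjusted p = 4.60e-04). March1, the ubiquitin ligase that removes surface class II and CD86, measured 29.7 to 32.02 FPKM in control and 29.9 to 35.1 FPKM in CITED2-deficient libraries and did not pass, nor did the endosomal protease Ctsl (-0.05).

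The 3 members of the T cell contact did not share the direction of the class II genes. Cd274, which encodes PD-L1, measured 19.3, 19.7 and 18.6 FPKM in control and 52.7, 61.1 and 57.6 FPKM in CITED2-deficient libraries. The groups lay far apart, with means of 19.2 ± 0.569 FPKM (SD, n = 3) in control and 57.1 ± 4.21 FPKM (SD, n = 3) in CITED2-deficient BMDMs, a 2.97-fold higher level and a log2 fold change of 1.52 ± 0.06 (SE), the largest among the 10 members. Cd40, the receptor for the T cell's CD40 ligand, measured 11.8, 13.1 and 12.7 FPKM in control and 19.4, 20.4 and 19.8 FPKM in CITED2-deficient libraries. Its groups did not overlap and its level was 1.58-fold higher (0.63 ± 0.06 (SE)), close in size to the class II difference and opposite in sign. With median-ratio scaling Cd40 stood at 0.72, beside a median of -0.58 for the class II genes, so the closeness in size depended on the scaling. Cd86, which binds CD28 on T cells, measured 19.7, 22.4 and 19.2 FPKM in control and 21.2, 24.3 and 21.8 FPKM in CITED2-deficient libraries. Its groups overlapped and the log2 fold change was 0.13 ± 0.07 (SE), rising to 0.23 with median-ratio scaling. Over the alternative settings its log2 fold change ranged from 0.08 to 0.24. In control libraries Cd274 stood at 0.882 to 0.984 times the level of Cd86, and in CITED2-deficient libraries at 2.49 to 2.64 times.

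Further ligands for T cells were also listed. Among 11 tested of 15 with values, 2 rose, 3 fell and 6 did not pass, again near the shares over all tested genes. Cd80, the other CD28 ligand, fell from 2.40, 2.65 and 2.90 FPKM to 1.41, 1.23 and 1.45 FPKM (-0.63 ± 0.12 (SE), limma adjusted p = 0.00175). Lgals9, which encodes the inhibitory lectin galectin-9, rose from 61.3, 61.6 and 60.3 FPKM to 167, 164 and 169.9 FPKM (1.44 ± 0.03 (SE), limma adjusted p = 1.49e-09). Vsir, which encodes the inhibitory checkpoint molecule VISTA, fell (-0.42 ± 0.02 (SE), limma adjusted p = 1.16e-06), as did Cd48, a ligand of CD244 (-0.41 ± 0.03 (SE), limma adjusted p = 2.88e-06), and the adhesion molecule Icam1 rose (0.35 ± 0.06 (SE), limma adjusted p = 0.00101). Pdcd1lg2, the other PD-1 ligand, lay under the filter on low values, with 0.128 to 0.225 FPKM in control and 0.326 to 0.458 FPKM in CITED2-deficient libraries, so that Cd274 was the more abundant PD-1 ligand in every library. Downstream of CD40, 3 of 7 tested genes rose and 3 fell, beside 16.7% of all tested genes higher and 34.6% lower. Traf1 rose from 8.86, 7.87 and 7.21 FPKM to 15.2, 15.8 and 15.3 FPKM (0.87 ± 0.08 (SE), limma adjusted p = 1.49e-05), and Traf3 (0.40 ± 0.06 (SE), limma adjusted p = 8.18e-04) and Traf6 (0.21 ± 0.05 (SE), limma adjusted p = 0.00610) rose by less. The adaptor Traf5, the kinase Map3k14 and the ubiquitin ligase Birc3 fell by 0.34, 0.25 and 0.18 on the log2 scale, with limma adjusted p-values of 0.0408, 0.00682 and 0.00704, and each of these calls was lost with median-ratio scaling. The Traf5 call was also lost without control replicate 2 or 3 and without CITED2-deficient replicate 1 or 3 (-0.450 to -0.228 over the 6 omissions).

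**Figure D3:**
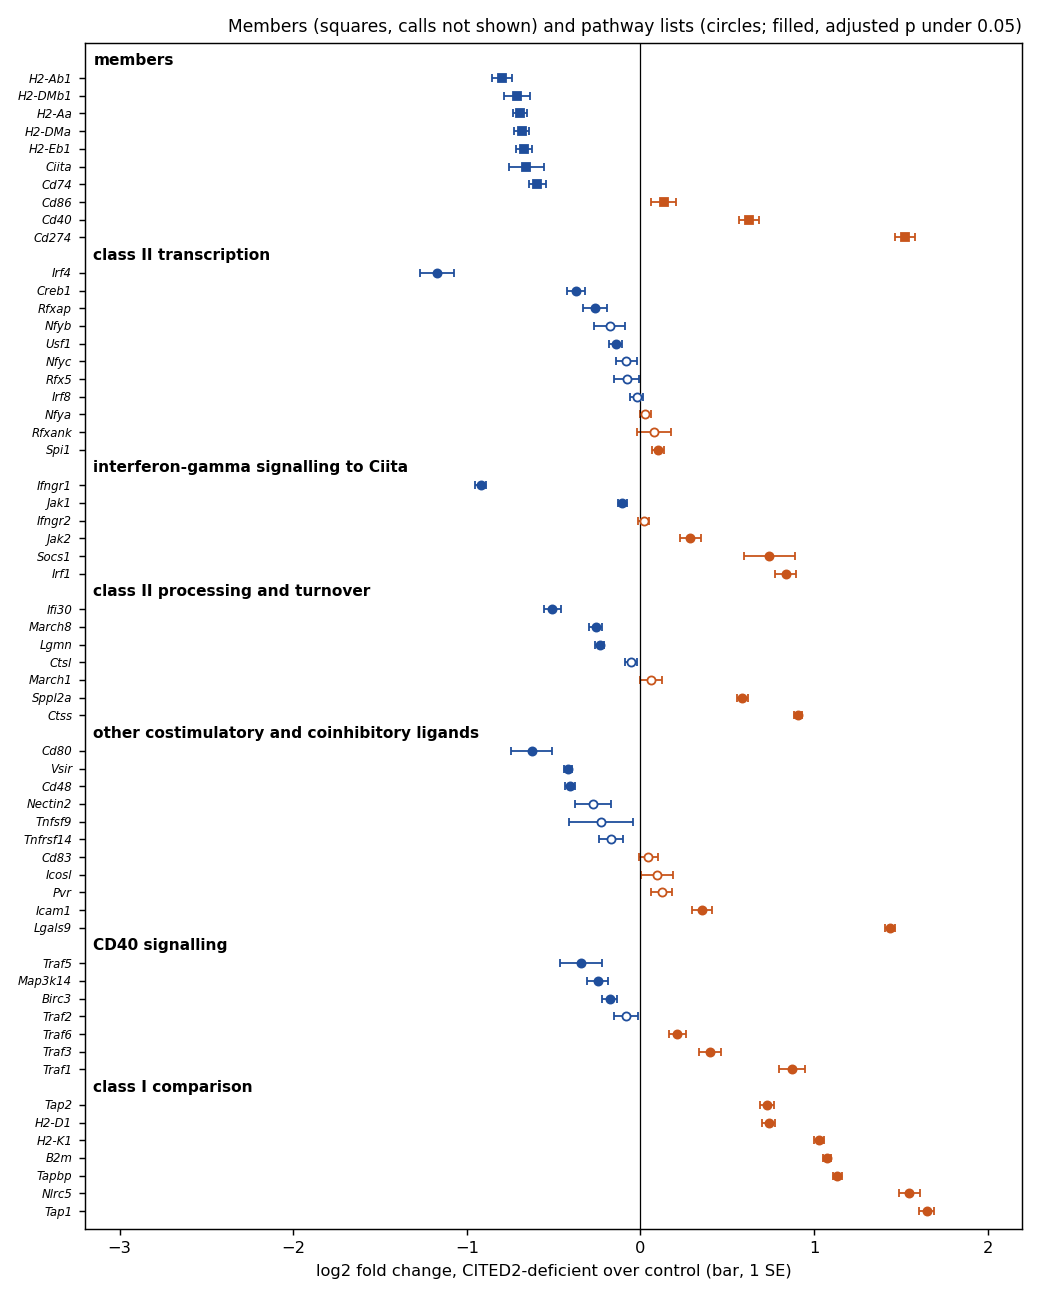
Log2 fold change (CITED2-deficient over control, bar 1 SE) of the 10 members (squares, shown without calls) and of the 49 tested genes on the pathway lists (circles, filled where the limma adjusted p-value is under 0.05). The 7 class II members cluster between -0.80 and -0.59, and the 7 class I genes at the bottom are all to the right of zero, from 0.73 to 1.65.

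Class I presentation was listed for comparison, since its genes are driven by NLRC5, a relative of CIITA, through similar promoter boxes. All 7 tested genes of that list rose, beside 16.7% of all tested genes. The list was chosen with earlier results of these data known, and it shares Tap1 and Tap2 with the stretch of chromosome 17 above. Nothing is therefore read from this count. Nlrc5 rose from 19.001, 17.7 and 17.8 FPKM to 51.4, 59.9 and 54.3 FPKM (1.55 ± 0.06 (SE), limma adjusted p = 7.10e-08), opposite to Ciita in the same libraries. B2m, the light chain, rose from 2502, 2510.2 and 2441 FPKM to 5185, 5271 and 5237 FPKM (1.07 ± 0.02 (SE), limma adjusted p = 2.29e-09). The heavy chains H2-K1 and H2-D1 rose by log2 fold changes of 1.03 ± 0.03 (SE) and 0.74 ± 0.04 (SE) (limma adjusted p = 1.06e-08 and 6.00e-07), although fragments of such similar genes can be split between them. Tapbp, Tap1 and Tap2 rose by 1.13, 1.65 and 0.73. The median log2 fold change of the list was 1.07, beside -0.66 over the 10 members and -0.10 over all tested genes. The difference between the lists was not tested.

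Within the groups the class II genes did not all vary together. After the genotype mean was taken out of each gene, the mean log2 profile of Cd74, H2-Aa, H2-Ab1 and H2-Eb1 over the 6 libraries correlated at r = 0.685 with H2-DMb1, 0.644 with Cd274, 0.194 with Ciita and 0.0067 with H2-DMa. CITED2-deficient replicate 1 had the lowest value of its group for Ciita, Cd74, H2-Aa, H2-Ab1, H2-DMb1, Cd86, Cd40 and Cd274. Genes outside all lists that followed the profile most closely were Tgds (0.997), Tradd (0.991), Dapk3 (0.986), Vps13a (0.985) and Ppp2r5e (0.984). With 6 points that share library depth and 2 means removed, these values are descriptions only.

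Markers of cells that could share the dish were set beside these values. The macrophage markers Adgre1 (2193 to 2234 FPKM in control, 1748 to 1815 FPKM in CITED2-deficient libraries) and Csf1r (1122 to 1146 and 906 to 927 FPKM) were high in both groups, as the labelled cell type requires. Of the 7 macrophage markers, 5 fell and 1 rose, beside 34.6% of all tested genes lower and 16.7% higher. Fcgr1 rose from a mean of 172 FPKM in control to 482 FPKM in CITED2-deficient BMDMs, and Itgam fell from 89.7 to 50.9 FPKM. The list summed to 5319 to 5375 FPKM in control and 4951 to 5049.9 FPKM in CITED2-deficient libraries, a sum carried mostly by Adgre1, Cd68 and Csf1r. The dendritic cell list, whose cells carry the most class II, summed to 5.41 to 6.997 FPKM in control and 5.34 to 5.90 FPKM in CITED2-deficient libraries, ranges that overlap, although its genes went both ways. Its defining genes Flt3 and Zbtb46 did not exceed 0.0582 and 0.315 FPKM in any library, and 1 of its 8 genes with values was tested, Kmo, which fell from 5.90, 3.97 and 5.76 FPKM to 1.44, 1.67 and 1.65 FPKM (limma adjusted p = 8.19e-05). Under the filter on low values and not tested, Dpp4 measured 0.0389, 0.212 and 0.155 FPKM in control and 1.47, 1.72 and 1.94 FPKM in CITED2-deficient libraries, and Clec9a measured 0.464, 0.592 and 0.231 FPKM and 1.01, 1.36 and 1.26 FPKM, respectively. Ccr7 (0.160 to 0.263 and 0.407 to 0.816 FPKM) and Xcr1 (0 to 0.0356 and 0.0895 to 0.112 FPKM) were likewise higher in all CITED2-deficient libraries. B cell markers, another source of class II, summed to 2.69 to 3.80 FPKM in control and 3.55 to 4.43 FPKM in CITED2-deficient libraries. These ranges overlap. Of 2 tested B cell genes Ebf1 rose from 0.590, 0.415 and 0.504 FPKM to 1.69, 1.52 and 1.48 FPKM (0.77 ± 0.14 (SE), limma adjusted p = 0.00138). Cd79b did not pass (-0.15 ± 0.15 (SE)), and every B cell gene with values other than Ebf1 had overlapping groups. The defining genes Ms4a1 and Pax5 did not exceed 0.293 and 0.338 FPKM. Among T cell markers the Cd3 genes did not exceed 0.241 FPKM, and only Cd28, the partner of Cd86 and Cd80, was tested, and it fell from 50.01, 49.1 and 52.1 FPKM to 29.96, 32.6 and 32.3 FPKM (-0.66 ± 0.05 (SE), limma adjusted p = 3.93e-06).

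Other lists moved with genotype, beside 16.7% of all tested genes higher and 34.6% lower. Fibroblast genes summed to 42.02 to 50.1 FPKM in control and 169.8 to 539 FPKM in CITED2-deficient libraries, with 6 of 6 tested genes rising, and Col1a1 measured 15.5, 14.2 and 16.6 FPKM and 305, 61.99 and 62.6 FPKM, highest in CITED2-deficient replicate 1. Without that library the log2 fold change was -0.60 for Ciita, -0.55 for Cd74, -0.72 for H2-Ab1, 0.64 for Cd40 and 1.58 for Cd274. Neutrophil precursor genes summed to 455 to 493 FPKM in control and 359 to 449.5 FPKM in CITED2-deficient libraries, and 3 of 4 tested genes fell, among them Mpo (-2.54 ± 0.12 (SE), limma adjusted p = 2.13e-07) and Elane (-2.08 ± 0.07 (SE), limma adjusted p = 4.32e-08). Lyz2, whose locus carries Cre, fell from 30.8, 30.6 and 32.5 FPKM to 9.39, 9.82 and 10.04 FPKM (limma adjusted p = 2.33e-08). The part of these shifts in the values of the members was not tested.

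**Figure D4:**
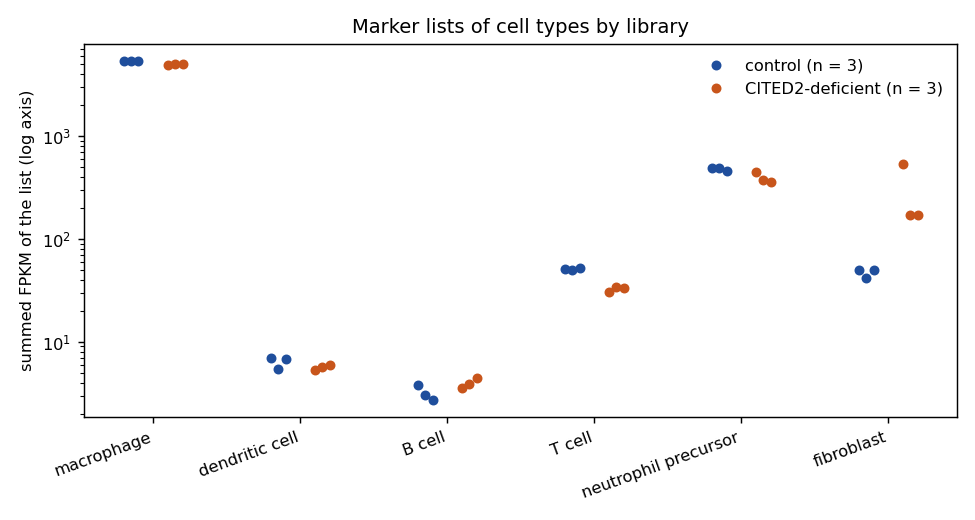
Summed FPKM of each marker list on a log axis in the 3 control (blue) and 3 CITED2-deficient (orange) libraries. The macrophage list is the highest in all 6 libraries, the dendritic and B cell lists do not exceed 6.997 FPKM, and the fibroblast list is higher in the CITED2-deficient libraries, with replicate 1 at 539 FPKM.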

How the data were processed

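The authors removed ribosomal RNA from total RNA of BMDMs, sequenced stranded libraries, aligned reads to mm10 with STAR and obtained FPKM per gene with Cufflinks and Cuffdiff (versions not given in the sources used here). The deposited FPKM are 1 value per gene and library, not pooled, and scaled by gene length and library size, so that a few abundant changed genes shift all others. Of 22248 listed genes, 22239 matched GENCODE release M21 (mm10) by identifier, and 23 names that a spreadsheet had turned into dates were restored.

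Multiplying FPKM by depth and mean transcript length gave fragment numbers. The depth of each library was estimated as the value at which the largest share of these products was whole. That share is therefore not a separate check on the fragment numbers. At the estimated depths 96.1% of matched genes came out whole within 0.02 in all 6 libraries. Among the members, Ciita, Cd86, Cd40 and Cd274 did so. Cd74, H2-Aa, H2-Ab1, H2-Eb1, H2-DMa and H2-DMb1 did not, so their rounded fragment numbers are approximate. Fold changes came from limma 3.58.1 in R 4.3.3 on log2(FPKM + 1) with a variance trend, for genes with a mean of at least 1 FPKM, with Benjamini-Hochberg adjustment at 0.05. The 6 libraries were grouped by their labels, 3 against 3. The steps were tested before use on simulated data in which a small share of genes changed, equally in both directions. That simulation held no shift of all genes, so it did not cover the shift described here.

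The members, pathway and marker lists were chosen with earlier results of these data known. Named were all members, Cited2, the genes of the lists and the 5 other genes whose profile was most like the class II chains. Some genes under this rule are left out of the lists and not reported. Motifs were searched in RefSeq promoter windows (GRCm38.p6). Alternatives were pseudocounts of 0.1 and 0.5, no filter or a mean of at least 5 FPKM, quantile and median-ratio scaling, no trend, array weights, blocking on the replicate number, leaving out each library, and limma-voom on recovered fragments.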

Additional observations from a re-analysis of the deposited data

How the results depend on the processing

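The members were selected on this contrast, so their calls are not used to judge stability. Their log2 fold changes moved by more than the replicate SD in 17 of 160 cases, all under quantile, median-ratio or limma-voom scaling. Over all tested genes 5994 passed (1950 higher, 4044 lower). Median-ratio scaling gave 5186 (2696 higher, 2490 lower, 52.0% higher in place of 32.5%) and limma-voom 5420 (2803 higher, 2617 lower, 51.7% higher), whereas quantile normalization gave 42.0% higher. Pathway genes past the threshold were 33 (18 higher, 15 lower), and with median-ratio scaling 30 (21 higher, 9 lower). Without 1 library, 5226 to 5467 genes passed. Under median-ratio scaling the log2 fold change turned positive for Rfx5 (0.0101), Nfyc (0.0199), Irf8 (0.0809), Ctsl (0.0495) and Traf2 (0.00905), and under limma-voom likewise (0.0125, 0.0230, 0.0814, 0.0507 and 0.00650). Traf2 also turned under quantile normalization (0.00450). With 1 library left out, Cd83 ranged from -0.0115 to 0.0830 (turned without control replicate 3), Irf8 from -0.0517 to 0.0158 (turned without CITED2-deficient replicate 1) and March1 from -0.00748 to 0.106 (turned without CITED2-deficient replicate 2). None of these genes was past the threshold in either fit. The cause was not tested. Among the tested genes named beside the members, 25 of 1154 re-estimates lost and 20 gained a call.

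Same-numbered libraries did not deviate together (correlations of 0.014, 0.0078 and 0.040), so the replicate numbers showed no sign of pairing. With 3 libraries per group, this cannot exclude that the samples were paired. With a replicate block 5708 genes passed, 34 of them on the pathway lists and 9 of them members. Cd40 and Ciita had the lowest minimum of fragments among the members, at 241 to 560 and 410 to 648 per library. The fragment numbers of Cd74 and the H2 members were rounded from values that were not whole. Class II relatives under 1 FPKM were too low to compare.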
